A study of Chlamydomonas reinhardtii with 3 samples.

Results

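The genes described here encode 8 proteins of vitamin C synthesis and oxidative stress defence in the green alga Chlamydomonas reinhardtii. They were taken by locus identifier from a table of 17527 gene entries. The rule uses no measured value, but the list was drawn up with earlier results of these data known. All 8 had a methylation level in both genotypes, as did 17326 entries in all. In the order of their roles they are VTC2 (Cre13.g588150), APX1 (Cre02.g087700), MDAR1 (Cre17.g712100), DHAR1 (Cre10.g456750), GPX5 (Cre10.g458450), CAT1 (Cre09.g417150), FSD1 (Cre10.g436050) and MSD1 (Cre02.g096150). Their identifiers place them on chromosomes 13, 2, 17, 10, 10, 9, 10 and 2. Their positions are not given by the table, and neither is the region (promoter, exon, intron or UTR) that was averaged for each gene.

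Whole-genome bisulfite sequencing was used to read cytosine methylation in 2 libraries of cmd1 KO cells, which lack CMD1, and in 1 library of wild type (WT) cells. Both genotypes were of strain CC125, grew in acetate medium at 25 °C in dim light (20 μmol photons a second on each square metre), and went from there into a minimal high salt medium under high light of 300 μE. The sources used here do not say how the knockout was made, or whether its libraries come from 1 clone or from separate cultures. The table has 1 cmd1 KO value per gene, and whether it comes from 1 of the libraries, their mean or their pooled reads is not stated, so no difference below has a spread between replicates or a test between genotypes, and each describes these libraries only.

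CMD1 is an algal relative of the TET dioxygenases, and the study concerns a DNA modification that it makes with vitamin C. Vitamin C (ascorbate) thus serves algal cells both as a donor to this enzyme and as an antioxidant. In strong light the photosynthetic apparatus produces superoxide, hydrogen peroxide and singlet oxygen. Superoxide dismutases turn superoxide into hydrogen peroxide, ascorbate peroxidase and catalase remove the peroxide, and reductases return the oxidised ascorbate to its reduced form. The comparison asks whether genes of vitamin C supply and use differed in methylation in cells without the enzyme that consumes vitamin C.

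All 8 genes carried little methylation, and the deposited level of each was higher in cmd1 KO than in WT. The levels lay between 4.53% and 6.81% in cmd1 KO, and between 0.48% and 1.22% in WT. Among the WT levels, 7 of the 8 lay below the median of all genes, with MDAR1 above it, and among the cmd1 KO levels 6 of the 8 did, with APX1 and GPX5 above it. The medians over the 8 genes were 5.51% in cmd1 KO and 0.79% in WT, beside 5.89% in cmd1 KO and 1.05% in WT over all genes. The share of all genes with a higher level in cmd1 KO was 99.1%, so 8 of 8 is close to what nearly every gene did. The median difference was 4.62 percentage points for the 8 genes and 4.73 points for all genes. None of the 8 differed by 10 points, a size that 3.5% of all genes exceeded towards cmd1 KO. Every such difference has a pair of limits: the lists of sites behind the levels may not have been made alike in the genotypes, as described below, and the read depth is unknown.

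**Figure D1:**
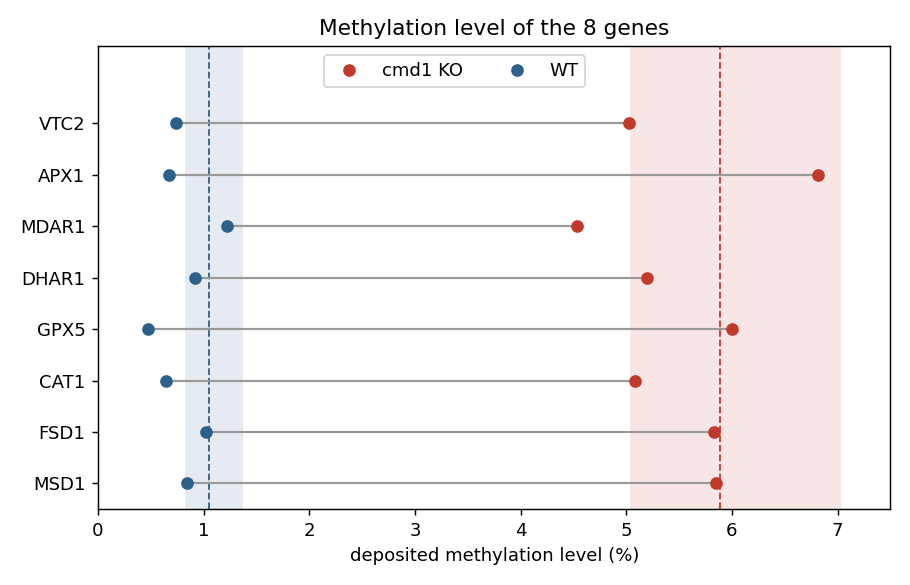
Deposited methylation level in percent (horizontal axis) of the 8 genes (rows) in cmd1 KO (red) and WT (blue), 1 value per genotype with no error. Dashed lines are the medians over 17326 genes, 5.89% in cmd1 KO and 1.05% in WT, and the shaded bands run between the quartiles. All 8 cmd1 KO points lie right of the WT points.

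The gene of vitamin C synthesis had deposited levels below the lower quartile of all genes in both genotypes, in cmd1 KO only just. The lower quartiles were 5.03% in cmd1 KO and 0.82% in WT. VTC2 encodes GDP-L-galactose phosphorylase, which catalyses the first committed step towards ascorbate. It stood at 5.02% over 34 listed sites in cmd1 KO and at 0.74% over 108 listed sites in WT. These levels were above those of 24.8% of genes in cmd1 KO and 17.5% of genes in WT. The difference, 4.29 points, was larger than in 36.2% of genes. As a ratio the cmd1 KO level was 6.82 times the WT level, which was larger than in 70.6% of genes. With the cmd1 KO level recomputed over the WT site number, as described below, VTC2 stood at 1.58% in cmd1 KO. That was above the lower quartile of all genes so recomputed, 1.40%. The VTC2 difference was then larger than in 56.9% of genes.

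With the deposited levels, the ascorbate cycle held both the largest and the smallest difference among the 8 genes. APX1 encodes an ascorbate peroxidase, which reduces hydrogen peroxide at the expense of ascorbate. It stood at 6.81% over 34 sites in cmd1 KO and at 0.68% over 148 sites in WT, and its difference, 6.14 points, was larger than in 81.2% of genes. MDAR1 encodes monodehydroascorbate reductase, which restores ascorbate from its radical. It stood at 4.53% over 19 sites in cmd1 KO and at 1.22% over 48 sites in WT, and its difference, 3.31 points, was larger than in only 10.3% of genes. DHAR1 encodes dehydroascorbate reductase, which restores ascorbate with electrons from glutathione. It stood at 5.19% over 34 sites in cmd1 KO and at 0.92% over 134 sites in WT, and its difference, 4.27 points, was larger than in 35.9% of genes. By the deposited levels, APX1 and MDAR1 thus lay at opposite ends of the list, although 18.8% of all genes lay above the larger and 10.3% below the smaller. With the cmd1 KO level recomputed over the WT site number, as described below, neither lay at an end. The differences were then 0.89 points in APX1 and 0.57 points in MDAR1.

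GPX5 and CAT1, grouped here under peroxide removal, had the lowest WT levels of the 8. APX1, whose enzyme also removes peroxide, came next at 0.68%. GPX5 encodes a glutathione peroxidase-like protein, known in this alga for its response to singlet oxygen. It stood at 6.0% over 29 sites in cmd1 KO and at 0.48% over 110 sites in WT. Its WT level exceeded that of only 4.15% of genes, while its cmd1 KO level exceeded that of 53.2%. The ratio of the levels, 12.6, was the largest of the 8 and larger than in 95.8% of genes, whereas the difference, 5.53 points, was larger than in 70.9%. CAT1 encodes a catalase, which breaks down hydrogen peroxide without a donor such as ascorbate. It stood at 5.08% over 31 sites in cmd1 KO and at 0.64% over 129 sites in WT, and its difference, 4.44 points, was larger than in 40.9% of genes.

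The genes of the superoxide dismutases were close to each other in deposited cmd1 KO level. FSD1 encodes the iron enzyme, and MSD1 a manganese enzyme. FSD1 stood at 5.83% in cmd1 KO and at 1.02% in WT, and MSD1 stood at 5.85% in cmd1 KO and at 0.84% in WT. The differences, 4.81 points for FSD1 and 5.01 points for MSD1, were larger than in 52.5% and 58.5% of genes. The FSD1 level rested on only 10 listed sites in cmd1 KO, against 65 in WT, and 6.34% of genes had as few cmd1 KO sites. The MSD1 level rested on 33 sites in cmd1 KO and 122 sites in WT. With the cmd1 KO level recomputed over the WT site number, as described below, these genes lay apart. The differences were then -0.12 points in FSD1 and 0.74 points in MSD1.

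In order of the difference the genes ran APX1, GPX5, MSD1, FSD1, CAT1, VTC2, DHAR1 and MDAR1. With 1 value per genotype no spread is available to separate neighbours in this order, and VTC2 and DHAR1 were nearly equal, at 4.29 and 4.27 points. Of the 8 differences, 6 lay between the quartiles of all genes, 3.93 and 5.72 points, with APX1 above and MDAR1 below. A difference of at least 5 points was found in 3 of the 8 (APX1, GPX5 and MSD1) and in 41.7% of all genes towards cmd1 KO. All 8 differed by at least 2 points, as did 98.2% of all genes towards cmd1 KO. With each column shifted to their common median, 3 of the 8 lay above 0 (APX1, GPX5 and MSD1), beside 46.8% of all genes.

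**Figure D2:**
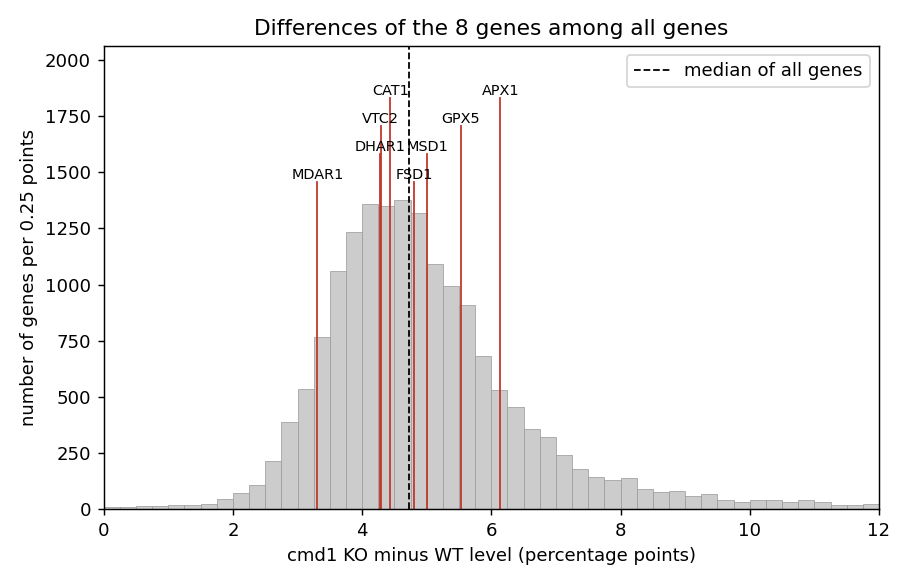
Number of genes (vertical axis, per 0.25 points) against the cmd1 KO minus WT level in percentage points (horizontal axis), with the 8 genes as red lines and the median of all genes, 4.73 points, dashed. The axis ends at 12 points, which leaves out 161 genes below 0 and 358 above 12, and the 8 genes lie between 3.31 and 6.14 points.

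When p in the authors' deposited table was adjusted by the Benjamini-Hochberg method over 17326 genes, all 8 genes passed 0.05, and so did 97.6% of all genes towards cmd1 KO. With the Bonferroni adjustment all 8 passed as well, beside 84.8% of all genes. The smallest Benjamini-Hochberg adjusted p from the authors' deposited table was 1.19e-22 for APX1 and the largest was 2.33e-06 for MDAR1. The genes with the fewest sites, FSD1 and MDAR1, had p-values in the authors' deposited table that were larger than in 82.9% and 83.9% of genes. The test behind this p is not given, and with 1 value per genotype it cannot rest on the spread between replicates.

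All 8 genes had fewer listed sites in cmd1 KO than in WT, as did 96.4% of all genes. The 8 genes together had 224 listed sites in cmd1 KO and 864 in WT. Site numbers in WT were above the median of all genes, 82, in 6 of the 8, with 48 in MDAR1 and 65 in FSD1 as the exceptions. In cmd1 KO the 6 genes other than those had 29 to 34 sites, above the median of 26. The ratio of cmd1 KO to WT sites ran from 0.15 in FSD1, lower than in all but 1.07% of genes, to 0.40 in MDAR1, with a median of 0.26 for the 8 and 0.31 for all genes.

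**Figure D3:**
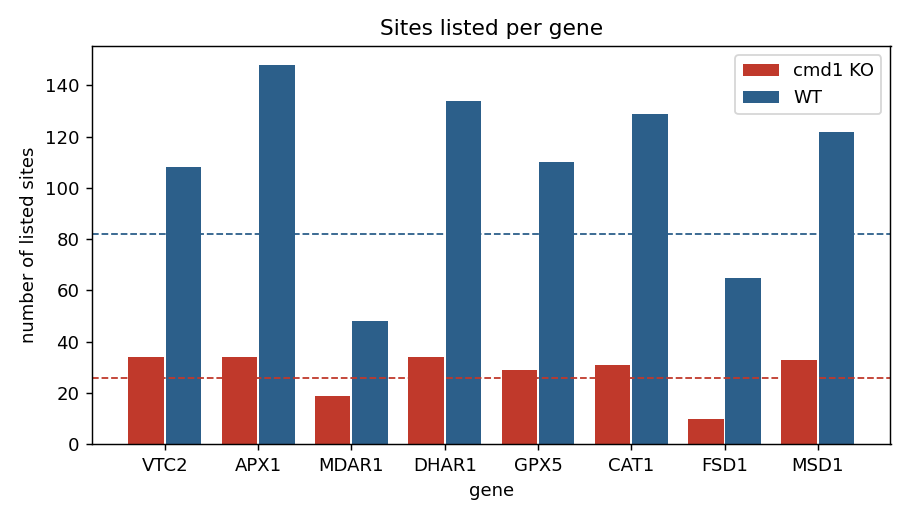
Number of listed sites (vertical axis) of the 8 genes in cmd1 KO (red, left) and WT (blue, right). Dashed lines are the medians over all genes, 26 in cmd1 KO and 82 in WT, and every cmd1 KO bar is shorter than its WT bar, with the shortest, 10 sites, for FSD1.

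The WT lists of all 8 genes held repeated levels, which the cmd1 KO lists need not hold. Site levels were given in steps of 0.1%, so a list in which every level occurs once has a least possible mean that grows with its length. For VTC2 that least mean was 1.65% for the 34 cmd1 KO sites and 5.35% for the 108 WT sites, beside deposited levels of 5.02% in cmd1 KO and 0.74% in WT. The WT level was below the least mean of distinct levels in all 8 genes and in 91.3% of all genes, and the cmd1 KO level was below it in 0 of the 8 and in 0 of all genes. Whether repeated levels were left out of the cmd1 KO lists is not given by the table. Leaving out zeros raises a listed mean, so the part of this in the differences cannot be told apart from a change in methylation.

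A quantity that zeros cannot change is the sum of the site levels of a gene, which is the deposited level times the number of sites. In units of 1 fully methylated site, this sum for GPX5 was 1.74 in cmd1 KO and 0.52 in WT, a ratio of 3.32 that was larger than in 91.8% of genes. For APX1 the sum was 2.32 in cmd1 KO and 1.00 in WT, and for VTC2 it was 1.71 in cmd1 KO and 0.80 in WT, ratios of 2.32 and 2.15. The deposited levels of the same genes had ratios of 12.6, 10.1 and 6.82. MSD1 stood at 1.93 in cmd1 KO and 1.03 in WT, and CAT1 at 1.58 in cmd1 KO and 0.83 in WT. DHAR1 stood at 1.77 in cmd1 KO and 1.23 in WT, and MDAR1 at 0.86 in cmd1 KO and 0.59 in WT. FSD1 was the exception, with a sum of 0.58 in cmd1 KO and 0.66 in WT. The sum was higher in cmd1 KO in 7 of the 8 genes and in 92.9% of all genes, and the median ratio was 1.89 for the 8 and 1.71 for all genes. The sum still depends on how many sites were read in each genotype, and dropped repeats of levels above 0 would lower it in cmd1 KO.

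Dividing the cmd1 KO sum by a larger number of sites gives the level that gene would have if the missing sites were all at 0. With the WT site number, 7 of the 8 genes stayed higher in cmd1 KO, as did 92.1% of all genes. The cmd1 KO levels of the 8 then lay between 0.90% and 1.79%, beside 0.48% to 1.22% in WT. GPX5 then had the largest difference, 1.11 points, APX1 followed with 0.89 points and VTC2 with 0.84 points, and FSD1 turned to -0.12 points. The median difference of the 8 was then 0.66 points, and that of all genes 0.74 points.

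Larger divisors were taken from the most methylated genes. In the 150 genes at 40% or more in WT, the ratio of cmd1 KO to WT sites had a median of 1.52 and a 95th percentile of 2.02. In the 8 genes the listed ratios ran from 0.15 to 0.40. Whether the ratios of the most methylated genes apply to the 8 was not tested. With 1.52 times the WT site number, 5 of the 8 genes stayed higher in cmd1 KO, beside 62.9% of all genes, and GPX5 again had the largest difference, 0.56 points. MDAR1, DHAR1 and FSD1 then lay below WT, at -0.04, -0.05 and -0.43 points. With 2.02 times the WT site number, GPX5, APX1 and VTC2 stayed higher, at 0.31, 0.10 and 0.05 points, beside 33.6% of all genes. These divisors can only lower the cmd1 KO level, so a negative value here shows no loss of methylation.

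**Figure D4:**
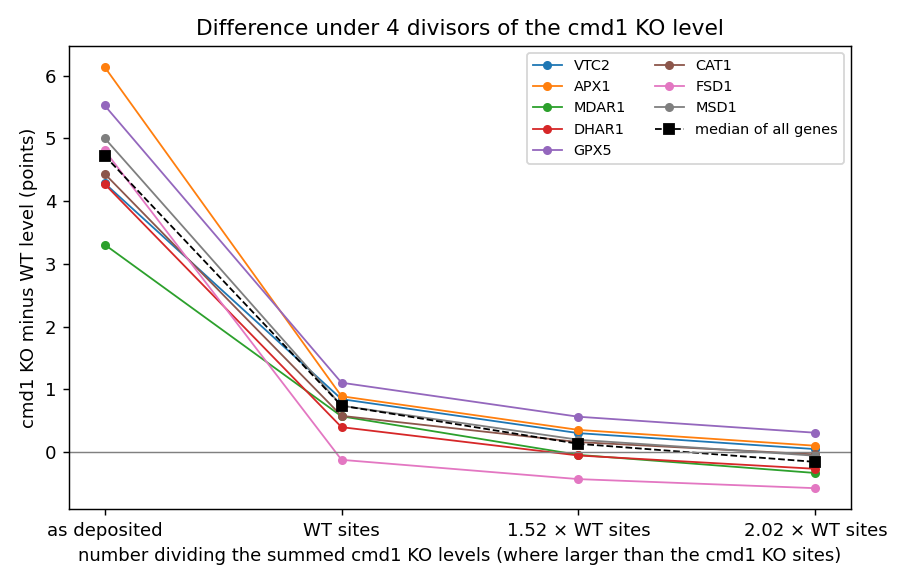
Cmd1 KO minus WT level in points (vertical axis) of the 8 genes when the summed cmd1 KO levels are divided by the listed cmd1 KO sites (left) or by 1, 1.52 or 2.02 times the WT site number where larger. The median of all genes (black squares) falls with the genes, GPX5 is highest under the 3 larger divisors and FSD1 is lowest under them.

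The surroundings of the genes were examined through the 3 nearest table genes on either side of each, in the order of the reference annotation. All 48 flanking genes were higher in cmd1 KO, by 2.79 to 10.9 points (median 5.00 points). Nearly every gene of the table was higher as well (99.1%), so this count does not set the flanking genes apart. The median over all genes was 4.73 points. Of the 8 genes, 4 lay within the range of their own 6 flanking genes (VTC2, DHAR1, GPX5 and MSD1). How often any gene lies outside the range of its 6 flanking genes was not counted. These positions therefore have no share of all genes beside them. APX1, at 6.14 points, lay above all of its flanking genes, which ran from 4.36 to 5.74 points. MDAR1, CAT1 and FSD1 each lay below all 6 of theirs. With the cmd1 KO sums divided by the WT site number, CAT1 and FSD1 were still below all 6, but 3 of the 6 flanking genes lay above APX1 and 2 of the 6 lay below MDAR1. GPX5 and MSD1 then lay above all 6 of theirs. The WT site number as divisor lowers a level most where cmd1 KO sites are fewest relative to WT sites, as in FSD1.

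CAT1 lay farther from the median of its flanking genes than any other of the 8. Its difference was 4.44 points, against 5.67 to 10.5 points for its 6 flanking genes (median 8.60 points), of which the nearest were Cre09.g417100 at 10.1 points and Cre09.g417176 at 7.79 points. CAT1 was the lowest of these genes in both genotypes. Its cmd1 KO level was 5.08%, against 6.96% to 11.6% in the flanking genes, and its WT level was 0.64%, against 0.74% to 1.53% in the flanking genes. With the WT site number as divisor the difference was 0.58 points in CAT1 and 0.78 to 4.88 points in the flanking genes.

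Around the other genes the flanking medians lay nearer. The VTC2 difference of 4.29 points lay near the 3.98 points of Cre13.g588100 on one side and far below the 10.9 points of Cre13.g588201 on the other. FSD1, at 4.81 points, lay just below flanking genes of 5.47 to 6.39 points. MDAR1, at 3.31 points, lay below flanking genes of 3.90 to 8.93 points. DHAR1 and GPX5, both of chromosome 10 and separated by 35 table genes, had flanking medians of 4.28 and 4.60 points.

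**Figure D5:**
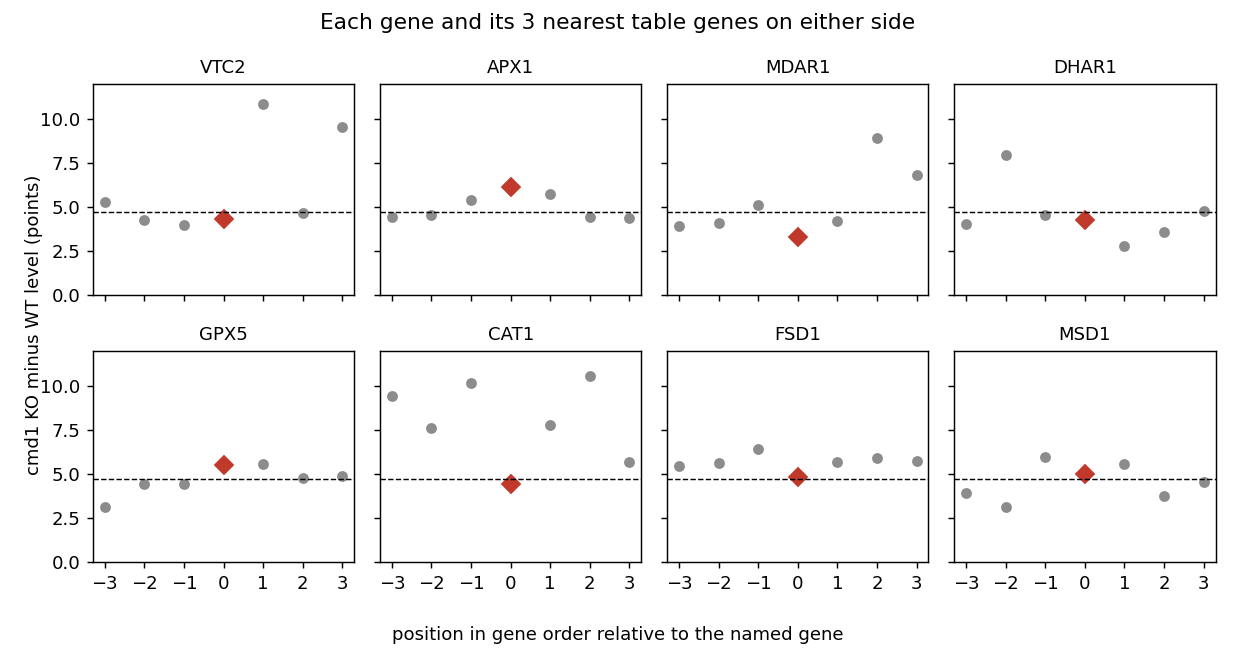
Cmd1 KO minus WT level in points (vertical axis) of each of the 8 genes (red diamonds) and of its 3 nearest table genes on either side (grey), by position in gene order (horizontal axis). The dashed line is the median of all genes, 4.73 points, and the flanking genes of CAT1 lie between 5.67 and 10.5 points, above CAT1 at 4.44 points.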

How the data were processed

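The submitters' processing notes name BSMAP, Trimmomatic 0.36 and FastQC 0.11.5. The sources used here do not give the genome build, annotation, coverage minimum or cytosine contexts. Per the file headers, the authors deposited for each gene a number of sites and a methylation level as a fraction (printed here as percent) in each genotype, with a fold, a difference and a p-value whose test is not given. The number of sites is no read depth. Levels were empty in 201 entries, which were left out. Python 3.11.15, numpy 2.4.6 and pandas 2.3.3 were used to compute differences, the share of genes below each value, sums of levels, Benjamini-Hochberg adjusted p-values and flanking genes. The adjustment step and the divisor step, the latter with the WT site number only, were run on simulated data. This checked the code and not the choice of divisor. In both genotypes the summed level (level times sites) came out in whole steps of 0.001 for 100% of genes (tolerance 0.001 of 1 step). The planned comparison with limma could not be run, because each genotype has 1 column. The RefSeq gene table of Chlamydomonas_reinhardtii_v5.5, used only for gene order, held 17525 of the 17527 identifiers. It gave 0 of them a symbol, so the names of the 8 genes are those of the gene list, and the planned lists of homologues and of genes by product text could not be made. Named genes are the 8 and their nearest flanking genes. The members and lists were chosen with earlier results of these data known.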

Additional observations from a re-analysis of the deposited data

How the results depend on the processing

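The count of genes differing by at least 10 points stayed at 0 under every divisor, site minimum and centring tried, and was 3 with a size of 5 points and 8 with 2 points (98.2% of all genes towards cmd1 KO). All 8 passed the authors' deposited test without adjustment, as did 97.6% of all genes towards cmd1 KO. With the Bonferroni adjustment all 8 passed too, beside 84.8% of all genes towards cmd1 KO. The count of 8 higher in cmd1 KO became 7 of 8 with the WT site number, 5 with 1.52 times it and 3 with 2.02 times it, where the median difference was 0.66, 0.18 and -0.047 points. Over all genes the median difference under these divisors was 0.74, 0.13 and -0.16 points, and 92.1%, 62.9% and 33.6% were higher. FSD1 turned to -0.12, -0.43 and -0.57 points under these, MDAR1 to -0.044 and -0.33 points and DHAR1 to -0.054 and -0.27 points under the last 2, and CAT1 to -0.037 and MSD1 to -0.058 points under the last. These falls follow from the divisors, which count missing cmd1 KO sites as 0. With columns centred on their common median, 3 of 8 were higher and the median was -0.21 points, with VTC2 at -0.55, MDAR1 at -1.52, DHAR1 at -0.56, CAT1 at -0.39 and FSD1 at -0.022 points. Centring takes out the difference between the column medians, and 46.8% of all genes were then higher. With at least 20 sites in both columns 6 genes remained, all higher, with a median of 4.72 points, and with at least 30 sites 5 remained, all higher, with 4.44 points. Chosen after seeing the data, the median was 4.44 points without FSD1 and 4.72 points without FSD1 and MDAR1. Also chosen after seeing the data, the WT site number left 46 of the 48 flanking genes higher, beside 92.1% of all genes. Leaving out each cmd1 KO library was not possible, because the table has 1 cmd1 KO column. No paired analysis was possible because the genotypes share fewer than 2 replicate numbers and 1 column each. Read depth, and so the precision of each level, is unknown.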

Other observations

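The low flank position of CAT1 was followed over a wider window after the nearest genes had been seen. CAT1 lies near the end of chromosome 9 in the order of the reference annotation, with 6 table genes after it, so 10 genes before it and those 6 were taken. Of these 16 genes, 13 had a larger difference than CAT1, 11 lay above the upper quartile of all genes and 7 differed by at least 10 points. The share of all genes at 10 points or more towards cmd1 KO was 3.5%. Their median was 8.60 points, with median levels of 11.5% in cmd1 KO and 1.40% in WT. The median ratio of cmd1 KO to WT sites was 0.48 in the 16 genes and 0.24 in CAT1. With the WT site number as divisor, 15 of the 16 still lay above CAT1, and their median difference was 3.07 points, against 0.58 points in CAT1. In windows of 20 genes around the other genes of the list, the median difference ran from 4.04 points around DHAR1 to 5.36 points around MDAR1, with 0 to 3 genes at 10 points or more.

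MDAR1 lay below all 20 genes of its wider window, although with the WT site number as divisor only 13 of the 20 lay above it. FSD1 lay below 13 of its 20 with the deposited levels and below all 20 with the WT site number. The ratio of cmd1 KO to WT sites was 0.15 in FSD1, beside a median of 0.34 in its window. This divisor lowers a level more where that ratio is smaller. Around APX1, 2 of 20 genes lay above it with the deposited levels and 5 with the WT site number. How many of all genes hold such places, or a place like that of CAT1, in a window of their own was not counted.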
